A study of Mus musculus with 12 samples.

Results

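Cluster 22 of the deposited clustering was examined across MC38 tumors of 8 host strains. Its members were the cells that the authors' cell table places in cluster 22, which were 582 of 93126 cells and came from 47 of 48 tumors. MC38 is a mouse colon carcinoma line. It was grown under the skin of female mice of 8 to 12 weeks, and the host was a C57BL/6J (B6) animal or the F1 offspring of C57BL/6J and a Collaborative Cross (CC) strain, an inbred strain bred from several founder strains. When tumors measured 75 to 110 mm3, each host received 200 µg of an isotype control antibody (2A3) or of aPD1, an antibody to the checkpoint receptor PD-1 (29F.1A12), and the tumor was taken 48 h later. The study classed CC001, CC002 and CC075 F1 hosts as responders and CC036, CC079 and CC080 F1 hosts as non-responders from tumor growth in other animals. B6 and CC007 F1 hosts were placed in no class. Because cells were sorted to enrich CD45-positive cells, the share of cluster 22 is a share of sorted cells and not of the tumor.

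The tumor, 1 hashtagged specimen of 1 pool, was the replicate, and 12 pools each held 4 tumors. Tumors had 53 to 3082 cells, and the median number of unique molecular identifiers (UMIs, each marking 1 captured transcript) per cell was 1952 to 5027.5 across pools. Cluster 22 had 20 to 85 cells per pool and 0 to 43 per tumor, with a median of 9.5. Its cells had a median of 4199.5 UMIs (577 to 29823) and 1878 genes. Isotype and aPD1 tumors never carried the same hashtag, so hashtag and treatment cannot be told apart. Barcodes of 83 cluster 22 cells were also found in another library, as were those of 10.9% of all cells, and no barcode stood on 2 cluster 22 cells.

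Fibroblasts make the fibrillar collagens and proteoglycans of connective tissue. Mural cells (pericytes and smooth muscle) wrap blood vessels, share several collagens with fibroblasts and carry Rgs5, Notch3 and Pdgfrb, while endothelial cells line vessels and carry Pecam1 and Cdh5. Interferon gamma, released by T and NK cells, induces the chemokine Cxcl9, guanylate-binding proteins (GTPases of cell-autonomous immunity) and MHC class I genes in most cell types. GAS and ISRE are sequence motifs known from promoters of genes that interferons induce.

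The promoters below are shown because 4 of these genes belong to the interferon gamma and MHC class I groups compared between classes, and Rgs5 marks the mural cells. Sequences are from RefSeq on GRCm38.p6, 250 bases before to 50 after the start of the gene. Capitals mark GAS (TTCNNNGAA) or ISRE letters (GAAA, any 2 bases, GAAA) on either strand.
Cxcl9 (chr5:92328030-92328329, minus strand): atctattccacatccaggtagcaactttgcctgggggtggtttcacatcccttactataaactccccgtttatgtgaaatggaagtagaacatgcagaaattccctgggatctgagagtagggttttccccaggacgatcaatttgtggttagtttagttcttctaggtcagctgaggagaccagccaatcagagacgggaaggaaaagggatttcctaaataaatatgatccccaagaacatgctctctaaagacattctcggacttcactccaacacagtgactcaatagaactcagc
Gbp2 (chr3:142620413-142620712, plus strand): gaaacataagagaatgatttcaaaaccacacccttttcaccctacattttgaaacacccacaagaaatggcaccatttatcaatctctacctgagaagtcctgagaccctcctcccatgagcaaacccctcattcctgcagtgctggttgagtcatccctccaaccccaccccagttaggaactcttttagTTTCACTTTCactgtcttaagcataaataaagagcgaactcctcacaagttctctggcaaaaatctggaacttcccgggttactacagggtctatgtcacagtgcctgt
Gbp7 (chr3:142530086-142530385, plus strand): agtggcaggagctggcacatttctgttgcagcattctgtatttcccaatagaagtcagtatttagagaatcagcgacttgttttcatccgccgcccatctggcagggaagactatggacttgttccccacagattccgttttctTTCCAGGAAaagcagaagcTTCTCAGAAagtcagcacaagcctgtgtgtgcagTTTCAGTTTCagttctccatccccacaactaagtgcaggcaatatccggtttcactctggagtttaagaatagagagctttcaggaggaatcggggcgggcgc
B2m (chr2:122147437-122147736, plus strand): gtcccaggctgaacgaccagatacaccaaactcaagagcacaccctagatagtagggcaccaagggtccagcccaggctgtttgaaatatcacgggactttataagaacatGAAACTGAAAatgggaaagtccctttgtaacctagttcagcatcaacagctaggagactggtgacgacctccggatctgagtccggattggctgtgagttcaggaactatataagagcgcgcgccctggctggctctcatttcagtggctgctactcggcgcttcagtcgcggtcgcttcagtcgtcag
Rgs5 (chr1:169655251-169655550, plus strand): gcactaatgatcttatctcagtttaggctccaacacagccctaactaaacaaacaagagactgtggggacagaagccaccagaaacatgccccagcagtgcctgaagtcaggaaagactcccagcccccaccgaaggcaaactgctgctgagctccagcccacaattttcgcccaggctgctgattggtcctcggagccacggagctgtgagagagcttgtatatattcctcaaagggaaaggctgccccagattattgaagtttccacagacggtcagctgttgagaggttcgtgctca

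Of 32851 promoters of 300 bases in the table, 8.30% held GAS letters and 3.44% ISRE letters. Gbp7 held both, with the ISRE 53 bases before the start, and Gbp2 and B2m held ISRE letters at 59 and 139 bases before it. Neither motif was in the windows of Cxcl9 and Rgs5. Of 20 interferon gamma inducible genes listed, 13 were matched, of which 10 held ISRE and 6 GAS letters. Of 12 MHC class I and peptide loading genes 10 were matched, of which 2 held ISRE and 1 GAS letters. Of 9 pericyte and smooth muscle markers 7 were matched, and 1 (Notch3) held GAS and none ISRE letters. Of 8 endothelial markers 5 were matched and of 7 fibrillar collagens 5, and no ISRE or GAS letters were in their windows.

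The authors' cell table gives cluster 22 a number and no name, and the study listed Col1a1 among its markers of cancer-associated fibroblasts. Collagen genes were high in the cluster. Col1a1, a chain of type I collagen, was at 3567 CPM (UMIs per 1000000 over the summed cells) against 1.55 in all other cells, and Col3a1, of type III collagen, at 3806 against 57.9. Cluster 20, a cluster among these others that also carried a marker of the implanted MC38 cells, was at 9.52 CPM for Col1a1 and 854 for Col3a1. Dcn, the proteoglycan decorin, was at 541 CPM in cluster 22, 34.5 in all other cells and 501 in cluster 20. Of 582 cells of cluster 22, 353 had a UMI of Col1a1, 376 of Col3a1 and 96 of Dcn. Rgs5 was at 2927 CPM with a UMI in 293 cells and Pecam1, an adhesion molecule of endothelium, at 331 CPM in 156 cells. The collagens, which mural cells share, were thus in most cells, while Dcn was in fewer cells than Rgs5 or Pecam1. For this reason the cells are called cluster 22 here and not fibroblasts.

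Cells were grouped by the list of which they carried the largest fraction of markers. This rule was set after the data had been seen, so the groups are a description. It used 9 mural, 8 endothelial and 5 fibroblast markers. From the fibroblast list it left out 8 genes shared with mural cells, among them Col1a1, Col3a1, Bgn and Postn, and the group sizes depend on that choice. Mural markers led in 294 cells (50.5%), endothelial markers in 157 (26.98%) and fibroblast markers in 97 (16.7%), and 34 cells had none of these groups. In 27 cells at least 2 mural and at least 2 endothelial markers were present together, in 9 mural and fibroblast markers, and in 3 endothelial and fibroblast markers. Doublets were not called. Of the 582 cells, 96 carried a Ptprc UMI or more than 2 UMIs of macrophage or T and NK cell markers, and the levels per marker group below are over the 486 other cells (259 mural, 132 endothelial and 77 fibroblast). These 486 are called cells without immune UMIs for short, although up to 2 UMIs of those markers were allowed.

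The genes that set the groups are given first and describe the rule. Rgs5, a regulator of G protein signalling, was at 6546 CPM there and at 2.68 or less in both other groups. Notch3, a receptor of mural cells, was at 672 CPM and Higd1b at 809 CPM, and these 3 are among the 9 mural markers of the rule. Acta2, smooth muscle actin, which the rule did not use, was at 3063 CPM in the mural and 386 in the fibroblast group. These cells also had Col1a1 (2192 CPM) and Col3a1 (1704 CPM) with Dcn at 2.50 CPM.

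In the endothelial group, Pecam1 was at 1172 CPM, the junction cadherin Cdh5 at 1161 and Plvap, a protein of capillary fenestrae, at 1362, all 3 markers of the rule. No Col1a1 UMI was found in its 132 cells. Fabp4, a fatty acid binding protein, was at 4799 CPM there and at 2063 in the mural group.

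The fibroblast group held the highest summed level of fibrillar collagens, with Col1a1 at 13915 CPM and Col3a1 at 16411. Dcn was at 3016 CPM and Lum, the proteoglycan lumican, at 854, both markers of the rule. Pi16 (1513 CPM) and Clec3b (1897 CPM), known from adventitial fibroblasts, and the complement gene C3 (1888 CPM) were at 1.67 CPM or less in the mural and endothelial groups. Col4a1 of basement membranes was lowest in this group, with 4535 CPM in mural, 3599 in endothelial and 670 in fibroblast-marker cells. The 10 basement membrane and other collagens summed to 12341, 7097 and 6444 CPM in these groups.

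**Figure D1:**
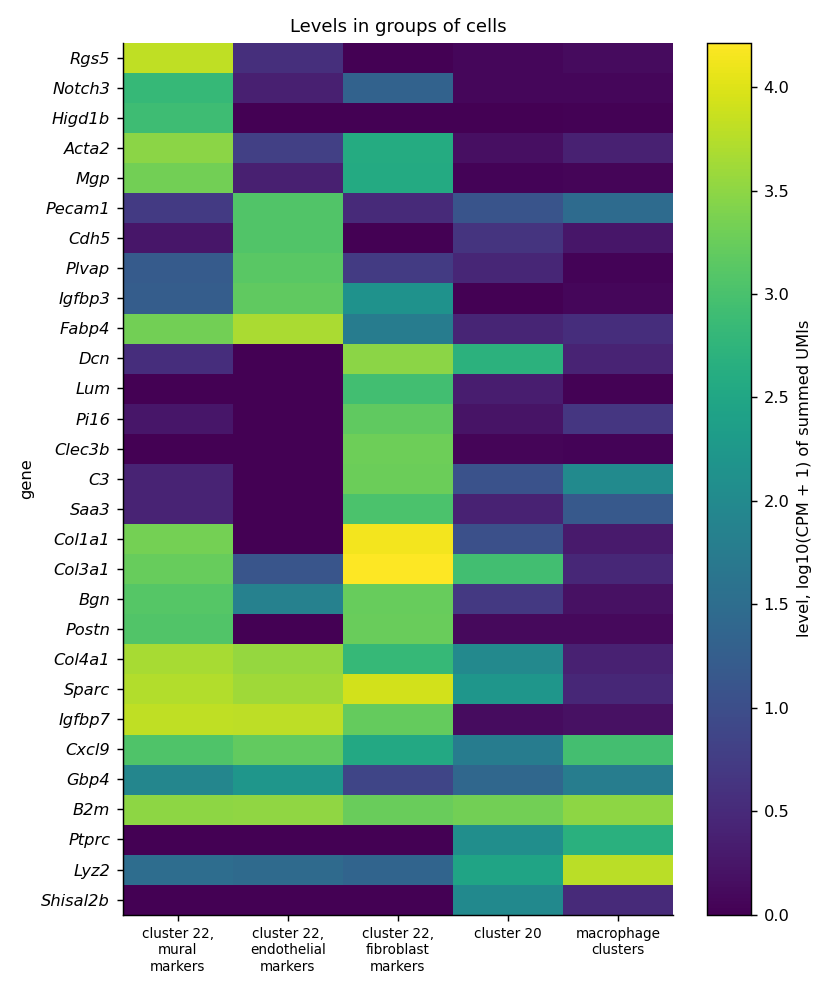
Levels of 29 genes as log10(CPM + 1) of summed UMIs (color) in the 3 marker groups of cluster 22, in cluster 20 and in the macrophage clusters. Cluster 22 cells had no Ptprc UMI and at most 2 UMIs of macrophage or T and NK cell markers. Rgs5 was at 6546 CPM in the mural group, Pecam1 at 1172 in the endothelial group and Dcn at 3016 in the fibroblast group.

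Markers of other cell types were low, except for 1 adipocyte and 1 Schwann cell marker. Shisal2b, a marker of MC38 cells, had no UMI in cluster 22 and was at 97.8 CPM in cluster 20. All 8 MC38 and epithelial markers summed to 6.41 CPM, 7 skeletal muscle markers to 4.80 and 5 mesothelial markers to 1.60. The 5 adipocyte markers summed to 2204 CPM against 2.49 in all other cells, but only 2 of them had a UMI in cluster 22. The 1 at 50 CPM or more was Fabp4, given above for the endothelial and mural groups, so the sum does not mark adipocytes. The 5 Schwann cell markers summed to 170 CPM against 2.31, and again 1 was at 50 CPM or more. The 10 macrophage markers summed to 1203 CPM in cluster 22, against 16752 in macrophages. The sum was 5193 CPM in the 96 cells set aside for immune UMIs and 68.3 in the 486 others, a difference that the filter fixed.

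Cxcl9, taken here as a marker of cluster 22 and not listed by the study as a fibroblast marker, was not particular to its fibroblast group. Over cells pooled from all tumors it was at 1580 CPM in the endothelial, 1140 in the mural and 344 in the fibroblast group, and at 897 in macrophages. The groups took unequal shares of their cells from the tumors, whose Cxcl9 differed widely, so no order is read from these levels. With cells thinned to 1000 UMIs, which left out 22 of 582, Cxcl9 had a UMI in 25% of cluster 22 cells (95% Wilson interval 21.6 to 28.7; unthinned 34.7%, median 4199.5 UMIs). The thinned share was 28.4% in the mural group (23.2 to 34.3), 24.2% in the endothelial (17.6 to 32.3) and 14.9% in the fibroblast group (8.51 to 24.7), with unthinned shares of 38.2%, 35.6% and 20.8%. In cluster 7, a T/NK cluster used as background, the share was 1.04% (unthinned 2.18%, median 1347 UMIs).

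The marker groups varied between hosts. Of cells without immune UMIs, endothelial markers led in 50.9% of 53 cells of CC075 hosts and in 9.52% of 84 cells of CC079 hosts. Fibroblast markers led in 3.77% of CC075 and 29.8% of CC079 cells. The CC075 tumors were in pools 9 to 11 and the CC079 tumors in pools 1, 2 and 5. Host strain and pool therefore cannot be told apart for this pair. Over pooled cells mural markers ranged from 37.5% (CC001) to 65.4% (CC007, where 1 tumor had at least 10 cells). The median over tumors with at least 10 cells ran from 25% in CC001 to 69.4% in B6. Across tumors with at least 10 cells, the endothelial share ran from 9.09% to 63.6% (median 33.3%) in responder and from 0% to 50% (median 18.3%) in non-responder strains, so the classes overlapped. These shares were not tested.

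**Figure D2:**
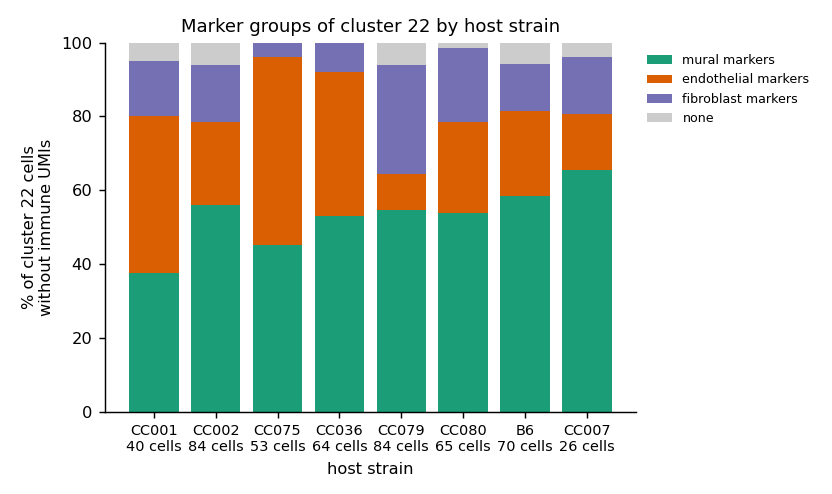
Percent of cluster 22 cells without immune UMIs (y axis) in each marker group by host strain (x axis, with the number of cells). Endothelial markers led in 50.9% of CC075 and 9.52% of CC079 cells.

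The first comparison asked whether cluster 22 made up a different share of cells between classes or treatments. In isotype tumors its share was 0% to 1.61% (median 0.548%, n = 10) in responder and 0.256% to 1.81% (median 0.720%, n = 9) in non-responder strains. In aPD1 tumors it was 0.101% to 1.67% (median 0.436%, n = 10) and 0.206% to 1.43% (median 0.495%, n = 9). The ranges overlapped in both. Differences between classes were within the spread between tumors with isotype (two-sided exact permutation test of rank sums, p = 0.497, adjusted 0.828 over 5 comparisons) and with aPD1 (exact p = 0.278, adjusted 0.828).

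Treatment gave no difference beyond that spread either. The median pairwise difference, aPD1 minus isotype, was -0.0581 percentage points in responder (permutation p = 0.801, adjusted 0.863) and 0.0603 (exact p = 0.863, adjusted 0.863) in non-responder strains. The change within a pool and strain was above 0 in 5 of 10 responder and 6 of 9 non-responder pairs, and the difference between classes did not pass (exact p = 0.497, adjusted 0.828). The tumor without a member, the CC075 isotype tumor of pool 9, had 0 of 1580 cells, which allows a share of up to 0.190%, and intervals and limits here cover counting error only.

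**Figure D3:**
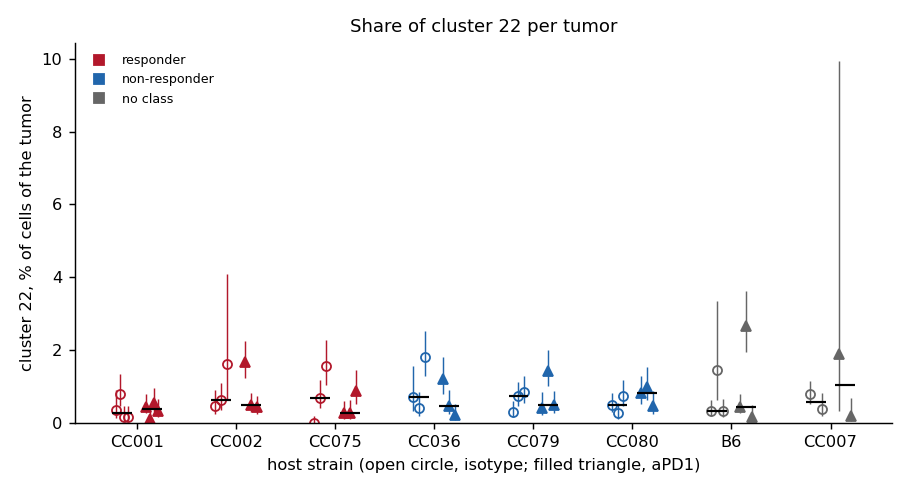
Cluster 22 as percent of the cells of each tumor (y axis) by host strain (x axis). Open circles are isotype and filled triangles aPD1 tumors, vertical lines 95% Wilson intervals (for the tumor at 0, the limit of 0.190%), black lines medians and colors the study's classes; responder and non-responder tumors overlapped, at 0% to 1.67% and 0.206% to 1.81%.

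Genes were then compared between classes over the 20 classed tumors with at least 10 cluster 22 cells. These were 4 isotype and 6 aPD1 tumors of responder strains and 5 and 5 of non-responder strains, with 34286 to 206436 UMIs each. Of 2161 genes tested, 2 (0.0925%) passed at an adjusted p of 0.05 by edgeR's quasi-likelihood test, Gbp4 higher and Gm10260 lower in responder strains, and 145 had an unadjusted p under 0.05. Tumors of 1 strain share a genotype, and the classes hold 3 strains each. Fewer cells of a marker group and less RNA per cell cannot be told apart in the summed counts.

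Gbp4, a guanylate-binding protein gene induced by interferon gamma (chromosome 5, 105115767 to 105139586, minus strand, GRCm38), was at 77.5 to 323 CPM (median 172) in 10 responder and 0 to 76.1 CPM (median 25.8) in 10 non-responder tumors. The lowest responder tumor (77.5 CPM of 90370 UMIs) lay just above the highest non-responder tumor (76.1 CPM of 91961 UMIs), a gap within counting error. The ranges of the classes thus met. Gbp4 was named because it passed, and how many of all genes tested did not overlap was not counted. The filter on low counts kept Gbp4 through responder tumors, where it was high, so its call is not independent of that difference. The log2 fold change was 2.17 (SE 0.39, edgeR adjusted p = 0.0153). With isotype the responder tumors had 82.4, 175, 182 and 323 CPM and the non-responder tumors 0, 21.6, 26.2, 44.95 and 58.6. With aPD1 they had 77.5, 81.1, 105, 169, 184 and 218 CPM against 0, 11.1, 25.4, 47.1 and 76.1.

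Without each strain or tumor in turn the log2 fold change of Gbp4 stayed between 1.80 and 2.50, while the call was lost in some of these fits. Its edgeR adjusted p was 0.104 without the CC001 isotype tumor of pool 2, 0.0530 without the CC079 aPD1 tumor of pool 2 and 0.0717 without the CC002 aPD1 tumor of pool 3. It was 0.116 without CC001, 0.171 without CC079, 0.142 without CC080 and 0.793 (log2 fold change 2.13) with counts summed to 3 against 3 strains, and the filter on low counts removed it without CC002 and in mural-marker cells alone. DESeq2 gave it no adjusted p. Gbp4 in macrophages of the same tumors was at 42.5 to 134 CPM (median 75.7) in responder strains. In non-responder strains it was at 16.9 to 62.3 CPM there (median 27.9). In cluster 7 the classes, in the same order, were at 76.9 to 258 (median 137) and 50.5 to 186 (median 130). Cluster 20 had 15.6 to 49.6 (median 30.3) and 4.61 to 78.1 (median 14.8). The 8 endothelial markers summed to 580 to 4348 CPM (median 2155) in responder and 221 to 2907 (median 935) in non-responder tumors, Gbp4 was at 165 CPM in the endothelial, 84.2 in the mural and 6.66 in the fibroblast group, and the part of this in the result was not tested. Gbp genes are a family of similar copies, and reads of hosts with other alleles were aligned to the B6 genome, so the count of any 1 member is uncertain.

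All 10 tested members of the interferon gamma list were above 0 in this contrast, with a median log2 fold change of 0.954, and 1 passed (Gbp4). The filter on low counts left these 10 of the 20 listed genes. It can keep a gene through the tumors of 1 class alone, so the count above 0 is a description. Over all genes tested 45.1% were above 0 and the median was -0.033. The full list summed to 3665 CPM in the endothelial, 2807 in the mural and 1207 in the fibroblast group. Endothelial markers were above 0 for 6 of 6 tested, and the part of this in the result was not tested. Cxcl9, a chemokine that attracts T cells, was at 52.4 to 3354 CPM (median 1304) in responder and 27.6 to 979 (median 420) in non-responder tumors, and its log2 fold change of 1.89 (SE 0.55, edgeR adjusted p = 0.342) did not pass, although it did in 2 of 11 alternatives (DESeq2 and no filter on low counts), with adjusted p from 3.57e-12 to 0.99991. Gbp7 had a log2 fold change of 1.10 and the GTPase gene Iigp1 one of 0.99, and neither passed. Without 1 strain or tumor Gbp7 did not pass in 25 of 26 fits (lowest edgeR adjusted p = 0.0390). Iigp1 ran from 0.604 to 1.52 over such fits and from 0.0454 to 1.41 over 11 alternatives. The same order of classes was seen in macrophages of these tumors. Medians there in responder and non-responder strains were 998 and 368 CPM for Cxcl9, 94.8 and 53.4 for Gbp7 and 108 and 36.5 for Iigp1. In cluster 7 the order was reversed, at 5.31 and 11.1, 110 and 153, and 44.4 and 86.9.

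The 10 tested genes of MHC class I and peptide loading were also above 0, with a median of 0.368, and none passed by edgeR. The full list summed to 8481 CPM in the endothelial, 7575 in the mural and 5041 in the fibroblast group. The part of the marker groups in this result was not tested. B2m, the light chain of MHC class I, was at 2549 to 4155 CPM (median 3140) in responder and 1707 to 2762 (median 2357) in non-responder tumors. Its log2 fold change was 0.50 (SE 0.12, edgeR adjusted p = 0.149), and H2-D1, a class I heavy chain, had 0.61 (SE 0.16, edgeR adjusted p = 0.250). Both passed in 2 of 11 alternatives, DESeq2 and at least 5 cells per tumor, with adjusted p from 0.00254 to 0.99991 for B2m and 0.0179 to 0.99991 for H2-D1. H2-Q7, a nonclassical class I gene on chromosome 17 chosen after its values were seen, had 1.67 (SE 0.37, edgeR adjusted p = 0.134), and near-identical H2-Q copies make its count uncertain. It passed in 4 of 11 alternatives (DESeq2, no filter on low counts, at least 5 cells per tumor and cells without immune UMIs), with adjusted p from 4.27e-05 to 0.99991, and in 2 of 26 fits without 1 strain or tumor. Macrophages of these tumors had medians in responder and non-responder strains of 3336 and 2861 CPM for B2m, 1653 and 1295 for H2-D1 and 190 and 99.5 for H2-Q7. In cluster 7 these were 3097 and 3161, 1676 and 1766, and 714 and 569.

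**Figure D4:**
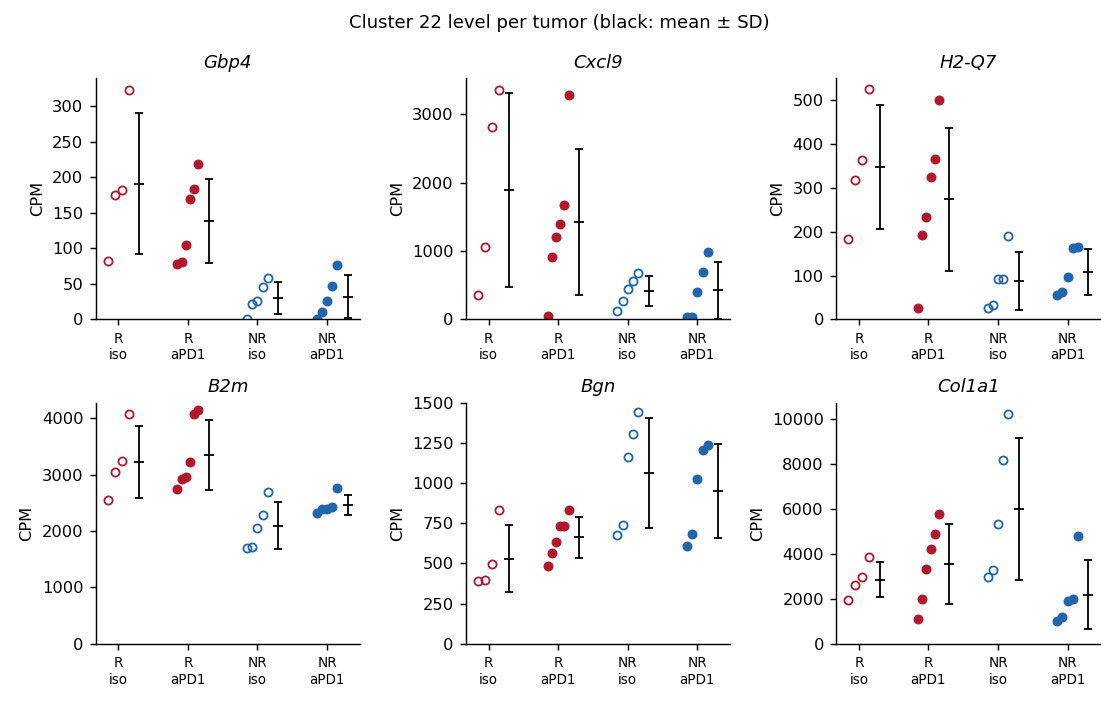
CPM of 6 genes in the summed cluster 22 cells of each tumor (y axes, from 0) in responder (R, red) and non-responder (NR, blue) strains with isotype (iso, open) and aPD1 (filled), with mean ± SD in black. Gbp4 was at 77.5 to 323 CPM in responder and 0 to 76.1 CPM in non-responder tumors, ranges that met within counting error, and the other genes overlapped between classes.

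Matrix genes lay mostly below 0 over both treatments, and none passed. None of 12 tested genes of the full fibroblast list (median -0.647), 15 proteoglycans and matrix glycoproteins (median -0.681) and 6 fibrillar collagens (median -0.295) was above 0. Of basement membrane and other collagens 2 of 10 were, of collagen processing genes 2 of 11, and of matrix metalloproteinases and inhibitors 2 of 6. By treatment, in isotype tumors 0 of 12 fibroblast markers (median -1.64) and 0 of 6 fibrillar collagens (median -1.13) were above 0, and with aPD1 7 of 12 (median 0.396) and 5 of 6 (median 0.361) were, beside 45.4% and 49.4% of all genes tested. Over pooled cells without immune UMIs, fibroblast markers led in 11.0% of responder and 24.8% of non-responder cells with isotype, and in 12.5% and 15.7% with aPD1. Over tumors with at least 10 cells the medians were 9.55% and 20% with isotype, and 14.6% and 6.67% with aPD1, the reverse of the pooled order. Of the 17 such cells of non-responder aPD1 tumors, 11 came from the CC079 tumor of pool 2. Immediate early and stress genes, known to rise when tissue is dissociated, were above 0 for 2 of 9 with isotype (median -0.982, 5 at an unadjusted p under 0.05, which 8.75% of all genes had) and 3 of 9 with aPD1 (median -0.194), none passed, and the part of either in the matrix values was not tested. Bgn, the proteoglycan biglycan, was at 393 to 834 CPM (median 599) in responder and 607 to 1444 (median 1095) in non-responder tumors (log2 fold change -0.79, SE 0.20, edgeR adjusted p = 0.250). Postn, the matrix protein periostin, had -1.08 (SE 0.28, edgeR adjusted p = 0.250). Bgn passed in 3 of 11 alternatives (DESeq2, no filter and at least 5 cells per tumor; adjusted p from 0.0386 to 0.99991) and Postn in 2 (DESeq2 and no filter; 0.000351 to 0.99991). Endothelial markers were above 0 for 6 of 6 tested (median 0.815), with none past the threshold, and Rgs5 had -0.75 (edgeR adjusted p = 0.700; 0.00389 to 0.99991 over 11 alternatives, 1 of which passed).

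Within aPD1 tumors 1 of 2161 genes passed (0.0463%) and within isotype tumors 1 (0.0463%), in both Gm10260, with 62 and 189 genes at an unadjusted p under 0.05. With aPD1 no gene passed by edgeR with the pool as replicate block (0) or without the 2 CC080 tumors of 1 animal identifier (0). Without single tumors or strains in turn the aPD1 call was lost in 23 of 26 fits, and the isotype call without CC001, CC075, CC079 or CC080 and without the CC001 isotype tumor of pool 2 or the CC075 isotype tumor of pool 11.

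Gm10260 (chromosome 13, 97760072 to 97760632, minus strand, GRCm38) is a near-identical copy of the ribosomal protein gene Rps18, so its count is uncertain. Over summed cluster 22 cells it was at 60.3, 30.7 and 6.92 CPM in CC001, CC002 and CC075 and at 5.04 in B6, against 659, 809, 529 and 838 in CC036, CC079, CC080 and CC007. Macrophages gave 2.44 to 7.32 CPM in the first 4 strains and 672 to 859 in the others. Rps18 had the opposite order, with 1644 to 1718 CPM against 892 to 1235. The pattern thus followed the host strain in cluster 22 and in macrophages, and in cluster 20 Gm10260 was at 2.64 to 6.74 CPM in the first 4 strains and at 22.8 to 46.3 in the others.

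**Figure D5:**
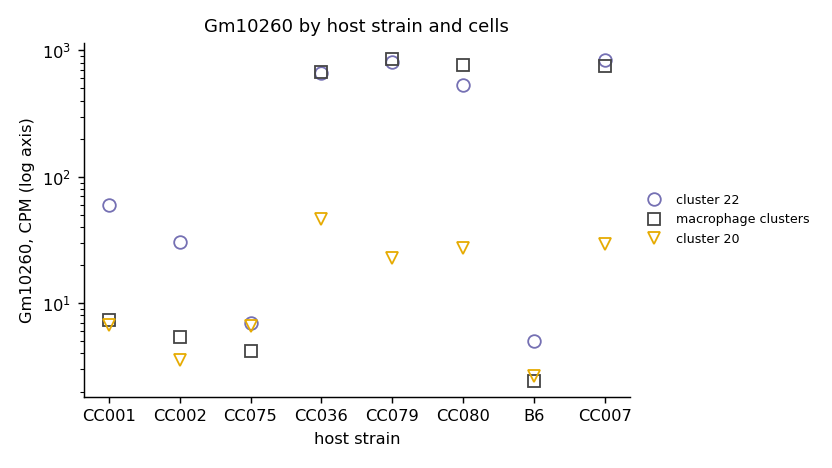
Gm10260 in CPM (log axis) by host strain in cluster 22, the macrophage clusters and cluster 20. Cluster 22 and macrophages lay at 529 to 859 CPM in CC036, CC079, CC080 and CC007 and at 60.3 or less in CC001, CC002, CC075 and B6.

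No gene passed between aPD1 and isotype in responder (0 of 2161, 0%) or non-responder strains (0 of 2161, 0%), or for the difference between classes (0 of 2161, 0%), by edgeR. Before adjustment 129, 64 and 118 genes had a p under 0.05, and DESeq2 called 0, 0 and 2. Fibrillar collagens were above 0 for 6 of 6 in responder (median 0.550) and 0 of 6 in non-responder strains (median -0.813), beside 53.2% and 49.6% of all genes tested. Fibroblast markers were above 0 for 12 of 12 and 1 of 12, and immediate early and stress genes for 8 of 9 (median 0.597) and 4 of 9 (median -0.202). The part of the stress genes and of the shares of fibroblast-marker cells given above in the result was not tested. Col1a2, of type I collagen, was at 758 to 1837 CPM with isotype and 681 to 3353 with aPD1 in responder strains. In non-responder strains it was at 1944 to 5948 and 652 to 2825, and the difference of the log2 changes was 2.31 (SE 0.66, edgeR adjusted p = 0.608). Over 10 alternatives this difference ran from 0.430 to 2.43, and it did not pass in 9 of them.

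Among the 8 host strains, 16 of 4064 genes (0.394%) passed edgeR's quasi-likelihood F-test over 24 tumors, with CC007 as 1 tumor. Prex2, an exchange factor for the GTPase Rac, was at 276, 295 and 299 CPM in CC075 and at 26.1, 30.5, 43.1 and 55.1 in CC079 (edgeR adjusted p = 0.00071). Fabp4 was at 2951, 6507 and 7777 CPM in CC075 and 221, 287, 462 and 819 in CC079 (edgeR adjusted p = 0.0316), and the fatty acid receptor Cd36 at 88.5, 165 and 363 against 0, 0, 5.08 and 10.8 (edgeR adjusted p = 0.0329). These 3 genes were chosen because they passed and the pair of strains after its values were seen, so the distance between the strains describes that choice. Both strains shared no pool, so strain and pool cannot be told apart for this pair. Endothelial markers led in 50.9% and 9.52% of their cells, the highest and lowest share when cells are pooled over tumors, although over tumors with at least 10 cells the median was higher in CC001 (61.5%) than in CC075 (50%), and the part of this in the result was not tested.

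Mt1, a metallothionein, had the opposite order, with a mean of 4554 CPM in CC079 and 459 in CC075. Gbp4 passed here too (edgeR adjusted p = 0.0403), with 169, 175, 184 and 218 CPM in CC002 and 0, 0, 21.6 and 25.4 in CC079. The other genes named by rank were Tinagl1, Cfap77, Prkch, Shank3, Gdpd3 and Ptprb, and Ftl1-ps1, Ifi202b and H2-Q2, which have near-identical copies and are uncertain. Without each strain or tumor in turn, Ftl1-ps1, Prex2 and Gm10260 passed in 32 of 32 fits and Fabp4 in 25, but Mt1 in 13 and Gbp4 in 11. Most of these calls were lost once pools entered the fit. With the pool as block 39 genes passed, 3 of the 16 among them (Ftl1-ps1, Gm10260 and Gbp4), and Prex2 had an edgeR adjusted p of 0.0637, Fabp4 0.0775, Cd36 0.177 and Mt1 0.0626. With pools 1 to 6 or 7 to 12 as a term 4 passed (Ftl1-ps1, Prex2, Gm10260 and Tinagl1), and Fabp4 had 0.459, Cd36 0.388, Mt1 0.428 and Gbp4 0.121. The labels do not name these sets of pools as batches.

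Cxcl9 of cluster 22 was set against Ifng, the interferon gamma gene, in the other cells of the same tumor, both as log2(CPM + 1). Over 24 tumors Pearson's r was 0.360 (permutation p = 0.0816, adjusted 0.375 over 7 relations) and Spearman's rho 0.332 (permutation p = 0.112), and r was 0.249 without the 2 tumors farthest from the median Ifng. It was -0.313 in 10 responder tumors (permutation p = 0.375) and 0.322 in 10 non-responder tumors (permutation p = 0.364). It was 0.344 in 13 aPD1 and 0.410 in 11 isotype tumors, 0.337 within pools 1 to 6 and 0.434 within pools 7 to 12. Without the 2 tumors farthest from the median Ifng of each set, r turned to -0.030 with isotype and -0.055 in pools 7 to 12, so that these rested on those tumors, and was 0.095 with aPD1, 0.231 in pools 1 to 6, -0.256 in responder and 0.306 in non-responder tumors. None of these 7 relations passed.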

How the data were processed

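Transcripts of single cells were measured (10x Genomics 5′ kit, version 2) in 12 pools of 4 hashtagged tumors. The authors deposited raw UMI counts per gene and cell with a table of library, strain, treatment and cluster per cell; the submitters' processing notes name Cell Ranger, Seurat 5.0.1 and GRCm38. Cluster numbers, cell filters and classes are the authors', and every library name of the cell table was matched to a sample. Members, gene lists and tests were chosen with earlier results of these data known.

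Counts of cluster 22 were summed per tumor and tested with edgeR 4.0.16 (TMM, filterByExpr, quasi-likelihood test, Benjamini-Hochberg) where at least 10 cells were present, in 1 fit of 4 class and treatment groups; strains were tested with treatment as covariate. Shares were compared with exact or 100000-resample permutation tests. The fit was also run on simulated counts without strain or pool effects, which cannot speak to tumors that share a genotype or a pool. Genes named were list members and, in contrasts with calls, the leading genes by p, leaving out predicted genes except Gm10260. A marker group needed at least 2 markers. Pools as blocks, DESeq2 1.42.0, other filters, cell minimums and leaving out strains or tumors were alternatives. Whether specimens of 1 strain came from separate cages or days is not given in the sources used here. 1 animal identifier stands on 2 CC080 tumors, which were kept. Deviations of isotype and aPD1 tumors of 1 pool and strain correlated at -0.073 over 19 pairs, and those of the classes in 1 pool and treatment at 0.190 over 16 pairs.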

Additional observations from a re-analysis of the deposited data

Results flagged for a closer look

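In 44 groups of 4 to 10 tumors, the highest or lowest tumor was compared with its neighbour by Dixon's gap at the 95% level, which chance exceeds in about 1 of 20 groups, and 5 tumors stood apart. The CC036 isotype tumor of pool 10 had the highest share of cluster 22 among non-responder isotype tumors, 1.81% against 0.841% in the next. The CC002 aPD1 tumor of pool 3 had 1.67% against 0.861% among responder aPD1 tumors. Gm10260 was at 22.7 CPM in the CC075 isotype tumor of pool 10 from 2 UMIs and at 0 in the other responder isotype tumors, so that any count above 0 would have stood apart. B2m was at 2762 CPM in the CC080 aPD1 tumor of pool 3 against 2426 in the next non-responder aPD1 tumor. Col1a1 was at 4806 CPM in the CC079 aPD1 tumor of pool 2 against 1990 in the next non-responder aPD1 tumor.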

How the results depend on the processing

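The number of genes called depended on the settings. Between classes over both treatments DESeq2 called 11 genes (1 shared with the 2 of edgeR), no filter on low counts 86, at least 5 cells per tumor 10, and each of at least 20 cells, the fit without the CC080 tumors of 1 animal identifier, mural-marker cells alone and counts summed per strain 1. With aPD1 these were 3 by DESeq2, 41 with no filter, 0 with pools as a replicate block and 0 without the CC080 tumors, and with isotype 5 by DESeq2 and 104 with no filter. With no filter the treatment contrasts gave 42 genes in responder and 30 in non-responder strains, and their difference 40, against 2 by DESeq2. Among strains DESeq2 called 60 genes, no filter 520, at least 5 cells 79, at least 20 cells 161, the pool block 39 and cells without immune UMIs 38. Pools 1 to 6 or 7 to 12 as a term gave 4, the fit without the CC080 tumors 6 and mural-marker cells 6. With at least 20 cells some groups held 1 tumor, which is assumed to vary like the others. Gbp4 between classes had a log2 fold change of 2.00 with at least 20 cells (edgeR adjusted p = 0.99991), 2.38 in cells without immune UMIs (0.120), 2.11 without the CC080 tumors (0.0825) and 2.58 with the pool block (0.0257). The cause of these shifts was not tested.

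Leaving out 1 strain or tumor, the class contrast called 1 to 4 genes, its aPD1 and isotype forms 0 to 1 each, the treatment contrast in non-responder strains 0 to 1 (1 without the CC079 aPD1 tumor of pool 2) and the strain test 4 to 33. The share difference between classes with isotype ran from -0.175 to 0.0189 (the latter without CC001), and that of treatment in non-responder strains from -0.213 (without CC080) to 0.160. That of treatment was 0.0206 in responder strains within pools 1 to 6, and in non-responder strains -0.00827 without the CC080 tumors and -0.266 within pools 7 to 12. With the pool as block the difference of treatment effects was 0.0405, and no share comparison passed under any alternative. The relation of Cxcl9 to Ifng was 0.376 with at least 5 cells (permutation p = 0.0193, 38 tumors), 0.631 with at least 20 cells (permutation p = 0.0722, 9 tumors) and 0.404 in cells without immune UMIs (permutation p = 0.0765, 20 tumors; Spearman's rho 0.579, permutation p = 0.00877). Leaving out single tumors, mural-marker cells alone and within-set shares were chosen after seeing the data.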
